A study of Mus musculus with 4 samples.

Results

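The liver X receptors and the lipid genes they are known to control were followed in injured kidneys of mice that lack elabela in their renal tubules. The group was set by name and held 10 genes: the receptors Nr1h2 (LXRβ) and Nr1h3 (LXRα), the cholesterol exporters Abca1 and Abcg1, the apolipoprotein gene Apoe, the ubiquitin ligase gene Mylip (IDOL), the transcription factor gene Srebf1, and the lipogenic enzymes Scd1, Scd2 and Fasn. All 10 were found among the 54078 genes of the expression table, and all 10 were among the 15414 with a mean level high enough to be tested. WT mice were Apela flox/flox littermates without Cre. Apela Ksp KO mice carried the same floxed alleles together with Cre driven by the Ksp-cadherin promoter, which acts in renal tubular epithelial cells and leaves Apela, the gene for elabela, intact in other cells. All mice were age-matched males, of an age that was not given for these animals, and all were studied at day 3 after clamping of both kidneys for 30 min (bI/R 3D), with no sham-operated kidneys among the libraries. Total kidney RNA gave 4 libraries, 2 WT pools and 2 KO pools, each pooled from 3 mice, so n = 2 counts pools. The strain was labelled C57BL/6 x 129S4/SvJae, whereas the study's methods give C57BL/6.

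LXRs are nuclear receptors that sit on DNA as heterodimers with a retinoid X receptor and are switched on by oxysterols, oxidized forms of cholesterol. When sterol is abundant they raise the export of cholesterol through ABC transporters onto apolipoprotein particles, limit its uptake by having IDOL mark lipoprotein receptors for degradation, and drive fatty acid synthesis through SREBP-1c, a product of Srebf1. LXRα is abundant in liver, fat, kidney and macrophages, while LXRβ is found in nearly all cells. LXR has also been reported elsewhere as a regulator of arginase 2, an enzyme that the study followed in these kidneys, which is a reason to ask whether the receptors and their targets differed between the groups.

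The targeted gene was looked at first. Apela was at 5.27 and 4.57 FPKM in the WT pools and at 0.536 and 0.245 FPKM in the KO pools. FPKM are fragments scaled by gene length and by a total for each pool. The KO values rest on 9 and 4 reads. Between 16045724 and 16927742 reads per pool fell on genes, and 5.20% to 6.45% of them were mitochondrial. The totals behind the FPKM were 16071739 and 17203609 in WT and 16727839 and 16237848 in KO. Only in WT pool 2 was this total above the reads on genes, which were 16045724 there. In the other pools it was below them, so it was not a plain count of reads, and how it was set is not given. The series' design text names adipose tissue as the source of the RNA, although kidney is named everywhere else. The 10 proximal tubule markers summed to between 1769 and 2980 FPKM, and of the adipocyte markers Ucp1 was at 0 in every pool, Adipoq was at 0 in 3 pools and at 0.268 FPKM in KO pool 2, and Lep did not exceed 0.0184 FPKM. Other genes of that list were detected, with Fabp4, which endothelial cells also express, at 10.2 to 14.6 FPKM, Lipe at 2.96 to 5.00 FPKM and Cidec at 0.282 to 7.92 FPKM.

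The DNA just upstream of the genes was read for letters that the genes share. RefSeq promoter windows on GRCm38.p6 were matched for 7 of the 10 genes, with 12 windows between them. Abcg1, Scd1 and Scd2 were not matched. The 250 bases before each start were compared between genes on both strands. The longest run in common was one of 18 bases, TGACCGGTAGTAACCCCG, shared by Abca1 and Fasn, and the next longest run between any pair of the genes was of 13 bases. The run of 18 was in 2 of the 32851 windows of the table, 0.00609%, those of Abca1 and Fasn. A Srebf1 window held it with 3 mismatches, as TGACCGCCAGTAACCCCA, and with up to 3 mismatches it was in 6 windows, 0.0183%, the others being of Acsl3, Rnf145 and Gm34061. The remaining windows of the 10 genes had at least 6 mismatches. The comparison was set up after these windows had been read, so the shares are a description. The 3 stretches are shown because they hold the run, each in the direction of its gene with the run in capitals.
Abca1, GRCm38.p6, chr4:53159896-53160145, minus strand: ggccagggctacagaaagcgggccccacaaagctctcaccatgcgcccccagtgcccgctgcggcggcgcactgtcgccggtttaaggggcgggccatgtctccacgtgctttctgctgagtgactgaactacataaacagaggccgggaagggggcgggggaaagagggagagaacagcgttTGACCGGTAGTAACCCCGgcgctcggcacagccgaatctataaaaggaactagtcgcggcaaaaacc
Srebf1, GRCm38.p6, chr11:60210472-60210721, minus strand: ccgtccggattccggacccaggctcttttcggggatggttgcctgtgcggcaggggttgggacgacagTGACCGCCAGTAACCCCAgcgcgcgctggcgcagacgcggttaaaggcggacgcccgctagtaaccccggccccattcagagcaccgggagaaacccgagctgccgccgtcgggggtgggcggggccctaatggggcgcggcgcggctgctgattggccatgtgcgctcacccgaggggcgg
Fasn, GRCm38.p6, chr11:120824548-120824797, minus strand: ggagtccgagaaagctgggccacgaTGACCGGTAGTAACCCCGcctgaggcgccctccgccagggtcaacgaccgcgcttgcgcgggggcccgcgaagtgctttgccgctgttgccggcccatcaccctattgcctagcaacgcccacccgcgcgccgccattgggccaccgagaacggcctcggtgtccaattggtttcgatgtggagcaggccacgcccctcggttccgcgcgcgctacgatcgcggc

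The run lay 67 to 50 bases before the Abca1 start, 182 to 165 bases before the Srebf1 start and 225 to 208 bases before the Fasn start. The Abca1 and Fasn windows lay outside annotated genes in GENCODE M21, next to the first base of the gene. The Srebf1 window lay inside the annotated Srebf1 gene, before a RefSeq start that is itself within the gene. The E-box CACGTG was in 1 of the 12 windows, that of Abca1, where it lay 147 to 142 bases before the start without touching the run, and in 6.02% of all windows. The nuclear receptor motif AGGTCA was in 0 of the 12 windows and in 14% of all, and its exact direct repeat with 4 bases between was in 0 of the 12 and in 0.0152% of all. LXR is known to bind imperfect forms of that repeat. Read on the other strand, the run was CGGGGTTACTACCGGTCA for Abca1 and Fasn and TGGGGTTACTGGCGGTCA for Srebf1, each of which holds GGGTTA and CGGTCA with 4 bases between, a repeat with 3 mismatches in all to the exact one. A repeat with at most 3 mismatches was in 3 of the 12 windows, the same 3, and in 18.5% of all windows. Further patterns, SREBP sites among them, were looked at and are not given here. A match describes letters and not binding, and these libraries measured no binding.

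At bI/R 3D, 7 of the 10 genes were lower in both KO pools than in both WT pools (Nr1h3, Abcg1, Mylip, Srebf1, Scd1, Scd2 and Fasn), 1 was higher in both (Apoe), and 2 overlapped (Nr1h2 and Abca1). Of all genes tested, 18.1% were lower without overlap and 19.7% were higher without overlap. Among the 7 lower genes the KO mean was 20.1% to 46.5% below the WT mean, but no gene of the 10 passed the test across all genes. The adjusted p-values of the 10 ran from 0.757 to 0.978 (limma, Benjamini-Hochberg over 15414 genes), and 0 genes of the whole table, 0%, had an adjusted p under 0.05. Before adjustment, 974 genes had a p under 0.05, of which 467 were lower (3.03%) and 507 were higher (3.29%). Of the 10 genes, 3 were lower at that level, Nr1h3, Scd1 and Srebf1, and 0 were higher. The median log2 fold change of the 10 was -0.41, beside a median of 0.0071 over all genes tested, and was -0.25 without WT pool 2. Srebf1 was not among the 3 with TPM, where Scd2 was. Without the filter on low values or the trend, Nr1h3 was the 1 gene of the 10 with an unadjusted p under 0.05. With 2 pools against 2 an exact two-sided permutation test cannot give a p below 0.333, so none was used. In whole-kidney RNA, fewer cells of a type and less RNA per cell cannot be told apart.

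**Figure D1:**
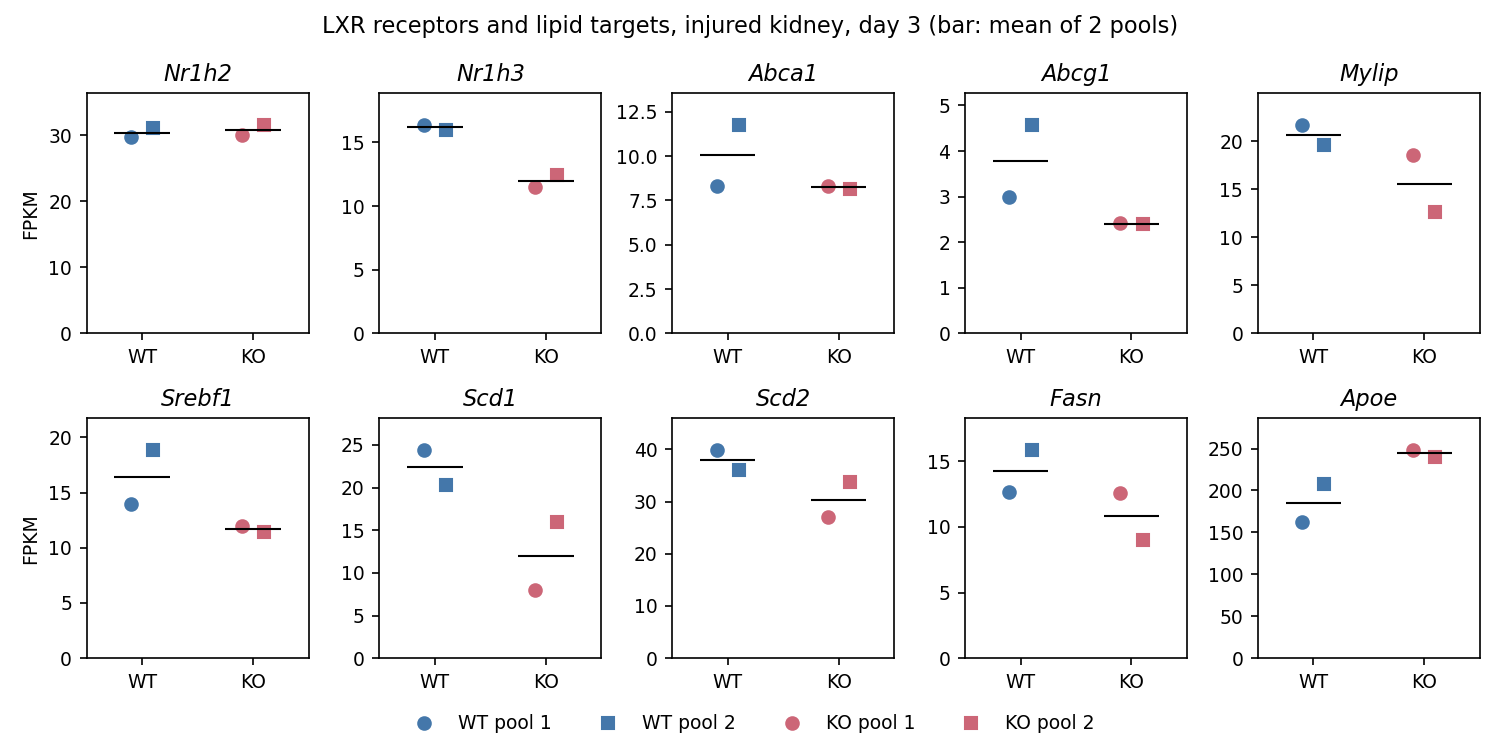
FPKM of the 10 genes in each pool at bI/R 3D, with WT pools in blue, KO pools in red, circles for pool 1, squares for pool 2 and a bar at the mean of 2 pools; each panel has its own linear axis from 0. The KO points lie below the WT points in 7 panels, above them for Apoe, and overlap with them for Nr1h2 and Abca1.

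Per length of transcript, the genes covered a wide range. Apoe was the most abundant of the 10 in every pool and Abcg1 the least, with means over the 4 pools of 215 and 3.09 FPKM. Scd2 at 34.2 and Nr1h2 at 30.6 FPKM came next after Apoe, and their pools overlapped. Mylip at 18.1, Scd1 at 17.2, Nr1h3 at 14.1, Srebf1 at 14.1, Fasn at 12.5 and Abca1 at 9.13 FPKM followed, each with a range over pools that overlapped its neighbour's. Within every single pool, however, Fasn was above Abca1. Apoe stood clear of Scd2, Nr1h2 of Mylip, and Abca1 of Abcg1 in all pools.

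The receptors differed from each other in how the groups compared. Nr1h3 (ENSMUSG00000002108, chr2:91184061-91202834, minus strand of GRCm38), which encodes LXRα, was at 16.4 and 16.0 FPKM in the WT pools and at 11.5 and 12.5 FPKM in the KO pools. Both KO pools were below both WT pools, and the pools of a group lay close together. The WT mean was 16.2 ± 0.272 FPKM and the KO mean 12.0 ± 0.695 FPKM (SD, n = 2), which is 26.0% lower in KO. The log2 fold change was -0.42 (SE 0.11, 95% interval -0.71 to -0.13, unadjusted p = 0.0140, adjusted p = 0.757, limma). By unadjusted p, Nr1h3 was number 284 of the 15414 genes. A transcript of unknown function on the same strand, Gm13783, overlaps Nr1h3 and did not exceed 0.168 FPKM.

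Nr1h2 (ENSMUSG00000060601, chr7:44549616-44553951, minus strand), which encodes LXRβ, was at 29.7 and 31.1 FPKM in WT and at 30.1 and 31.6 FPKM in KO. Each KO pool fell among or just beside the WT pools. Its log2 fold change of 0.02 had a 95% interval of -0.27 to 0.31 (SE 0.11, adjusted p = 0.978, limma), and its sign turned under quantile normalization and TPM scaling and when WT pool 1 or KO pool 2 was left out. LXRβ transcripts therefore outnumbered LXRα transcripts per length in every pool, by 1.81 and 1.94 times in WT and by 2.62 and 2.54 times in KO. The receptor transcripts share no stretch of 50 bases, so their reads could be told apart.

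The genes whose profile over the 4 pools was most like each receptor were taken among genes of similar level. For Nr1h2 these were Larp1, Naca and Slc38a10, with root mean square differences of 0.0018, 0.0094 and 0.0097 on the log2 scale, from 2645 candidates with a median of 0.13. For Nr1h3 they were Amdhd2, Gm14681 and Myo15b, at 0.026, 0.032 and 0.032, from 4528 candidates with a median of 0.26. Amdhd2, an enzyme of amino sugar breakdown, was at 22.4 and 23.0 FPKM in WT and at 16.2 and 17.7 FPKM in KO. With 4 pools such likeness describes these libraries only.

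No partner of the receptors passed the test. Of 7 listed partners and coregulators 6 were tested, and 0 had an unadjusted p under 0.05. The median log2 fold change of the 6 was 0.05 and turned to -0.052 with TPM, where that of all genes tested was -0.089. The median of the 6 was 0.0085 without KO pool 1 and 0.105 without KO pool 2. Rxra, the retinoid X receptor of highest level, was at 31.4 and 30.3 FPKM in WT and at 34.0 and 29.4 FPKM in KO. The corepressor gene Ncor1 was at 16.6 and 16.5 FPKM in WT and at 20.6 and 17.3 FPKM in KO, with a log2 fold change of 0.18 (adjusted p = 0.827). Rxrb overlapped between groups, at 14.9 and 17.2 FPKM in WT and at 14.8 and 18.9 FPKM in KO. Among 6 enzymes that make or clear oxysterols, 0 had an unadjusted p under 0.05. Their median was -0.021, and ranged from -0.22 without WT pool 2 to 0.11 without WT pool 1. The most abundant, the sterol hydroxylase gene Cyp27a1, was at 22.5 and 18.8 FPKM in WT and at 17.7 and 20.4 FPKM in KO. Cyp7b1, which clears oxysterols, was at 13.1 and 6.58 against 12.3 and 6.80 FPKM, and Ch25h, which makes 25-hydroxycholesterol, at 2.21 and 4.09 against 2.48 and 3.56 FPKM.

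Of the cholesterol exporters, Abcg1 (ENSMUSG00000024030, chr17:31057698-31115777, plus strand), which passes cholesterol to HDL, was at 2.98 and 4.57 FPKM in WT and at 2.43 and 2.39 FPKM in KO. The KO pools were close to each other and below both WT pools, and WT pool 2 stood above the rest. The KO mean was 36.2% below the WT mean, and the log2 fold change was -0.53 (SE 0.22, 95% interval -1.10 to 0.039, adjusted p = 0.787, limma). Abcg1 had the fewest reads of the 10, 158 to 320 per pool, which gives a counting error of at most 7.96% (1 SD). That error covers the counting of reads only and not differences between mice.

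Abca1 (ENSMUSG00000015243, chr4:53030787-53159895, minus strand), which loads cholesterol onto apolipoprotein A-I, was at 8.30 and 11.8 FPKM in WT and at 8.32 and 8.15 FPKM in KO. The other 3 pools were level, and WT pool 2 was higher. Its log2 fold change was -0.25 (SE 0.19, 95% interval -0.75 to 0.25, adjusted p = 0.833, limma), and it was -0.011 without WT pool 2 and -0.49 without WT pool 1. The values for Abcg1 were then -0.26 and -0.80. Per length, Abca1 exceeded Abcg1 by 2.78 and 2.57 times in WT and by 3.43 and 3.40 times in KO.

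WT pool 2 was also the pool with the most macrophage RNA. The 14 macrophage markers summed to 206 and 510 FPKM in WT and to 246 and 242 FPKM in KO, and 13 of the 14 were highest in WT pool 2, among them C1qa at 38.7 and 88.3 FPKM in WT and at 43.1 and 33.3 FPKM in KO. Of the 14, 12 had a log2 fold change below 0, 4 of them without overlap, beside 18.1% of all genes, and their median was -0.60. Abca1, Abcg1, Srebf1 and Fasn were highest in the same pool, and the part of macrophage RNA in their values was not tested. Nr1h3, Mylip, Scd1 and Scd2 were higher in WT pool 1 than in WT pool 2.

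Apoe (ENSMUSG00000002985, chr7:19696109-19699188, minus strand), which encodes the lipoprotein component made by liver, macrophages and other cells, went the other way. It was at 163 and 208 FPKM in WT and at 249 and 240 FPKM in KO, so that the lower KO pool still exceeded the higher WT pool. The KO mean was 31.7% above the WT mean, with a log2 fold change of 0.41 (SE 0.19, 95% interval -0.08 to 0.90, adjusted p = 0.797, limma). WT pool 2, with the highest macrophage sum, had the higher Apoe value of the WT pools but a lower one than either KO pool. Leaving out 1 pool at a time gave values between 0.23 and 0.58, and quantile normalization gave 0.24.

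**Figure D2:**
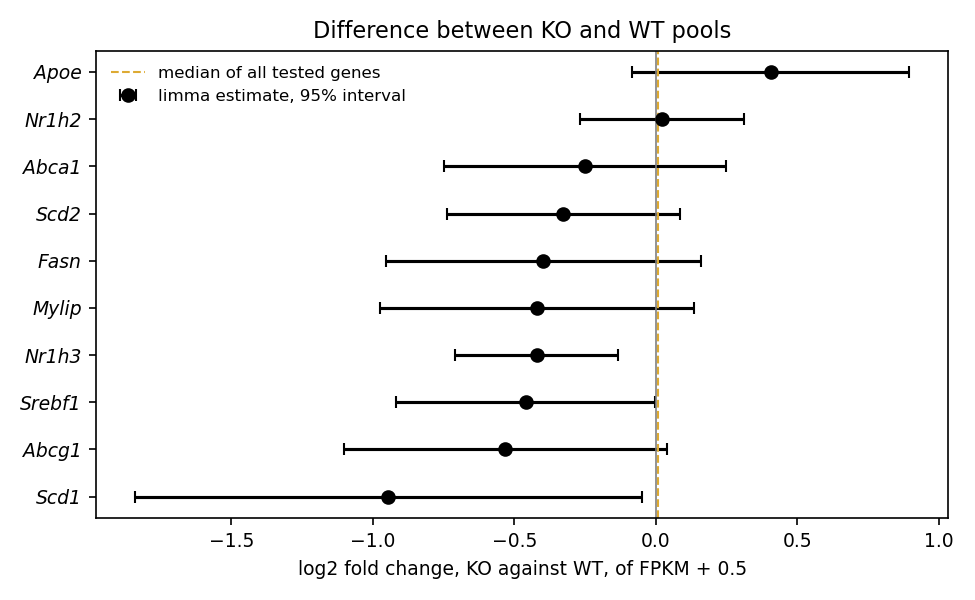
Log2 fold change of KO against WT on the log2(FPKM + 0.5) scale for each gene, as a point with its 95% interval from limma; the dashed line marks the median of all genes tested, 0.0071. The intervals of Nr1h3, Srebf1 and Scd1 lie below 0, before any adjustment for the number of genes, and the other 7 include 0.

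Other LXR targets showed no common direction. Of 17 listed, 12 were tested, 0 had an unadjusted p under 0.05, 9 were above 0 and 3 below, and the median log2 fold change was 0.14. The median was 0.0056 without WT pool 2, with 6 of the 12 below 0, and 0.036 without KO pool 1. Lpl and Pltp had an unadjusted p under 0.05 without WT pool 1, and Apoc1 and Smpdl3a without KO pool 2. The intestinal and hepatic sterol exporters Abcg5 and Abcg8 did not exceed 0.0657 FPKM and were not tested. Smpdl3a, a phosphodiesterase gene, was at 121 and 110 FPKM in WT and at 74.9 and 114 FPKM in KO. Lpcat3, which remodels membrane phospholipids, was at 59.2 and 48.8 against 57.0 and 61.4 FPKM, and Mlxipl, which encodes the sugar-sensing factor ChREBP, at 37.1 and 31.0 against 35.9 and 44.8 FPKM. Npc2, a carrier of lysosomal cholesterol that was named after its values were seen, was at 28.8 and 30.2 FPKM in WT and at 26.7 and 28.1 FPKM in KO. It was the only gene of the 12 without overlap, beside 18.1% of all genes tested that were lower without overlap.

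Mylip (ENSMUSG00000038175, chr13:45389742-45412022, plus strand) encodes IDOL, which brings lipoprotein receptors to degradation. It was at 21.7 and 19.6 FPKM in WT and at 18.5 and 12.6 FPKM in KO. Both KO pools were below both WT pools, and KO pool 2 was lowest by a wide margin. The KO mean was 24.6% below the WT mean, with a log2 fold change of -0.42 (SE 0.21, 95% interval -0.97 to 0.13, adjusted p = 0.797, limma). It was -0.15 without KO pool 2 and -0.69 without KO pool 1. Of the receptors it is known to act on, Vldlr was at 10.5 and 9.61 against 12.2 and 11.4 FPKM, and Lrp8 at 0.592 and 0.730 against 0.910 and 1.21 FPKM. Both were higher in KO without overlap, beside 19.7% of all genes tested, with adjusted p-values of 0.797 and 0.798 (limma). Lrp8 had an unadjusted p under 0.05 with voom weights (limma). IDOL acts on receptor protein, which was not measured here.

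Srebf1 (ENSMUSG00000020538, chr11:60199089-60222581, minus strand), which encodes SREBP-1a and SREBP-1c and was counted as 1 gene, was at 14.0 and 18.9 FPKM in WT and at 12.0 and 11.4 FPKM in KO. The KO pools lay close together below both WT pools. The KO mean of 11.7 ± 0.417 FPKM was 28.9% below the WT mean of 16.4 ± 3.46 FPKM (SD, n = 2). Its log2 fold change was -0.46 (SE 0.17, 95% interval -0.92 to -0.0024, unadjusted p = 0.0492, adjusted p = 0.786, limma), and -0.25 without WT pool 2. Rai1 overlaps Srebf1 on the other strand over 109 bases and was at 5.59 and 6.92 FPKM in WT and at 6.26 and 6.53 FPKM in KO.

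Of 6 genes that carry or cleave SREBP, 0 had an unadjusted p under 0.05. Their median log2 fold change was -0.12, and -0.041 without KO pool 2. With TPM it was -0.22, beside -0.089 over all genes tested. Srebf2, the gene of the SREBP that drives cholesterol synthesis, was at 18.6 and 21.5 FPKM in WT and at 15.7 and 16.8 FPKM in KO, with a log2 fold change of -0.29 (adjusted p = 0.797). Scap, the escort protein gene, was at 13.8 and 12.7 against 14.8 and 14.4 FPKM, and Insig2, whose product retains SCAP, at 14.3 and 12.6 against 14.7 and 12.9 FPKM. Insig1, named after its values were seen, was at 14.9 and 16.3 FPKM in WT and at 8.0 and 14.7 FPKM in KO, with KO pool 1 lowest.

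The lipogenic enzymes Scd1, Scd2 and Fasn were all lower in KO without overlap, beside 18.1% of all genes tested. Scd1 (ENSMUSG00000037071, chr19:44394451-44407709, minus strand), a desaturase gene that makes monounsaturated fatty acids, had the largest difference of the 10 with all pools included. It was at 24.5 and 20.3 FPKM in WT and at 8.02 and 16.0 FPKM in KO, so that the KO pools were themselves 1.99 times apart. The KO mean of 12.0 ± 5.61 FPKM was 46.5% below the WT mean of 22.4 ± 2.92 FPKM (SD, n = 2). Its log2 fold change was -0.94 (SE 0.34, 95% interval -1.84 to -0.050, unadjusted p = 0.0423, adjusted p = 0.785, limma). It was -1.42 without KO pool 2 and -0.47 without KO pool 1, where Mylip, Fasn, Abcg1 and Srebf1 had larger differences.

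Scd2 (ENSMUSG00000025203, chr19:44293676-44306864, plus strand), a second desaturase gene on the same chromosome, was at 40.0 and 36.0 FPKM in WT and at 27.0 and 33.7 FPKM in KO. The KO mean was 20.1% below the WT mean, with a log2 fold change of -0.33 (SE 0.16, 95% interval -0.74 to 0.086, adjusted p = 0.797, limma). As for Scd1, KO pool 1 was the lowest pool, and without it the log2 fold change was -0.17. Scd1 stood at 0.612 and 0.565 of the Scd2 level in WT and at 0.297 and 0.474 in KO. Their transcripts share 145 stretches of 50 bases, 3.03% of those in Scd1 and 2.68% of those in Scd2, and how reads that fit both were counted is not given in the sources used here.

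Fasn (ENSMUSG00000025153, chr11:120805846-120824547, minus strand), which encodes the synthase that builds palmitate, was at 12.7 and 15.9 FPKM in WT and at 12.6 and 9.0 FPKM in KO. The groups did not overlap, but WT pool 1 and KO pool 1 were nearly level. The KO mean was 24.3% below the WT mean, with a log2 fold change of -0.40 (SE 0.21, 95% interval -0.95 to 0.16, adjusted p = 0.798, limma). It was -0.16 without KO pool 2 and -0.63 without KO pool 1.

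**Figure D3:**
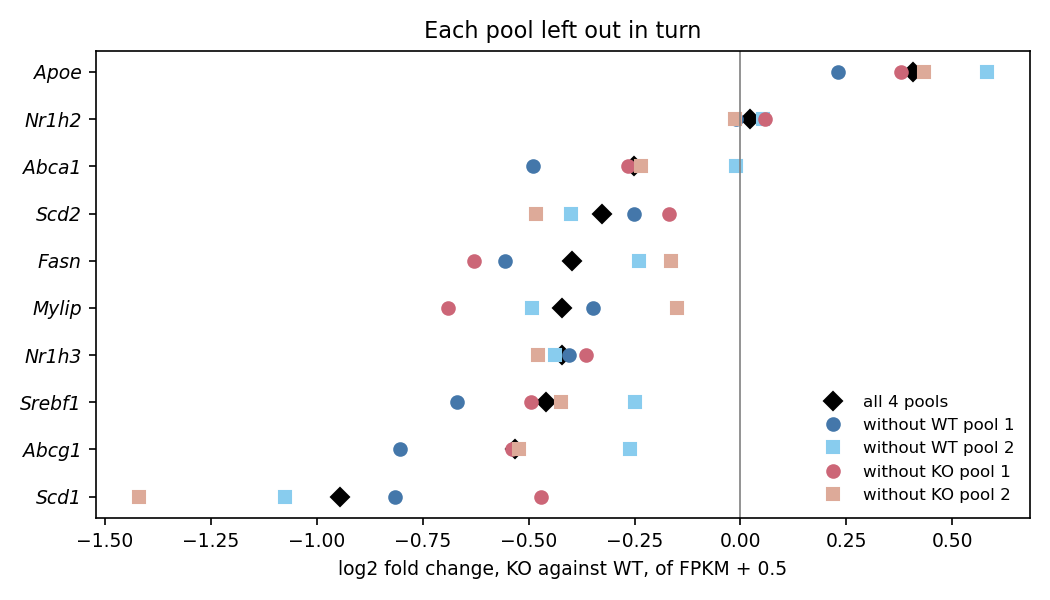
Log2 fold change of KO against WT for each gene with all 4 pools (black diamonds) and after leaving out 1 pool at a time (blue and red marks, named in the legend), on the log2(FPKM + 0.5) scale. The 7 lower genes keep to the left of 0 in every case, as their lack of overlap requires. Abca1 moves to -0.011 without WT pool 2, and Nr1h2 crosses 0.

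KO pool 1, lowest for Scd1, Scd2 and Nr1h3, was also the pool with the lowest sum of proximal tubule markers. The 10 proximal tubule markers summed to 2980 and 2252 FPKM in WT and to 1769 and 2474 FPKM in KO, so the groups overlapped. Of the 10, 6 were lowest in KO pool 1 and 4 in WT pool 2. Against WT, 8 had a log2 fold change below 0 and 2 above, with 5 lower and 1 higher without overlap, beside 18.1% and 19.7% of all genes. Slc34a1, the phosphate transporter, was at 898 and 689 FPKM in WT and at 365 and 609 FPKM in KO, while Slc22a6, an organic anion transporter, was at 233 and 141 FPKM in WT and at 236 and 383 FPKM in KO. The adipocyte markers summed to 15.9 and 16.6 FPKM in WT and to 27.9 and 17.9 FPKM in KO. Most of the excess in KO pool 1 was Cidec, a lipid droplet gene, at 1.37 and 0.282 FPKM in WT and at 7.92 and 2.79 FPKM in KO. All 8 endothelial markers were above 0, 4 of them without overlap, beside the same 19.7%, with sums of 96.9 and 121 FPKM in WT and of 115 and 142 FPKM in KO. All 5 podocyte markers were above 0, 2 of them without overlap, also beside 19.7%, with sums of 55.2 and 51.5 FPKM in WT and of 60.7 and 67.2 FPKM in KO. The part of RNA from any of these cell types in the values of the 10 genes was not tested.

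**Figure D4:**
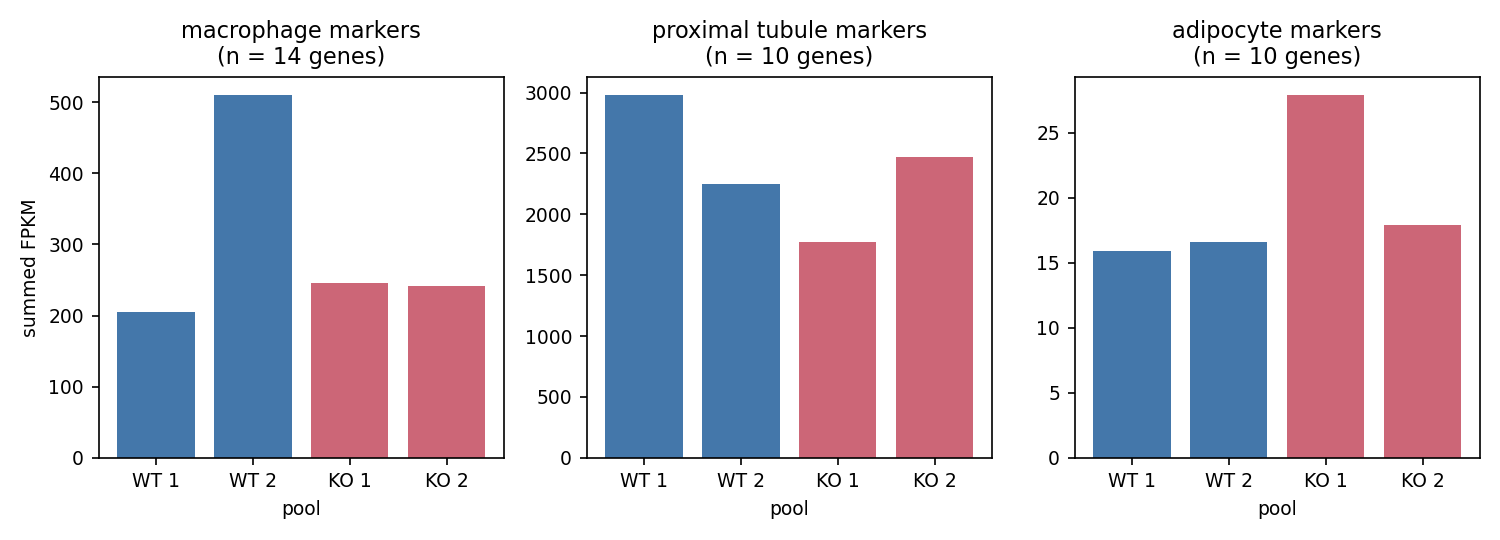
Summed FPKM of 14 macrophage, 10 proximal tubule and 10 adipocyte markers in each pool, as bars from 0 with WT in blue and KO in red; the axes differ between panels. The macrophage sum is highest in WT pool 2 at 510 FPKM, the proximal tubule sum lowest in KO pool 1 at 1769 FPKM, and the adipocyte sum highest in KO pool 1 at 27.9 FPKM.

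The remaining lipogenic genes were not uniformly lower. Of 16 listed, 13 were tested. At an unadjusted p under 0.05, 2 were lower and 1 was higher, beside 3.03% and 3.29% of all genes. The median log2 fold change of the 13 was 0.05, which turned to -0.051 with TPM and also without WT pool 2. With TPM the median of all genes tested was -0.089. The lower genes were Fads1 and Fads2, the desaturases of polyunsaturated fatty acids. Fads1 was at 34.5 and 33.9 FPKM in WT and at 23.9 and 25.1 FPKM in KO, with a log2 fold change of -0.47 (SE 0.11, unadjusted p = 0.00841, adjusted p = 0.708, limma). Fads2 was at 59.6 and 56.8 against 43.5 and 45.9 FPKM, with a log2 fold change of -0.38 (SE 0.12, unadjusted p = 0.0253, adjusted p = 0.785, limma). For both the pools of a group lay close together, but neither had an unadjusted p under 0.05 without KO pool 1, and the p of Fads2 was also above 0.05 with the replicate block, without WT pool 1 and without KO pool 2. With a pool left out their log2 fold changes ranged from -0.51 to -0.44 for Fads1 and from -0.41 to -0.34 for Fads2. Gpam, which starts triglyceride synthesis, was higher in KO, at 30.7 and 27.5 FPKM against 22.0 and 15.8 FPKM in WT, with a log2 fold change of 0.63 (SE 0.19, unadjusted p = 0.0246, adjusted p = 0.785, limma). It was 0.40 without WT pool 2, and its unadjusted p was under 0.05 neither then nor without either KO pool.

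Genes of cholesterol synthesis, which are known to be driven by SREBP-2, had a median log2 fold change of -0.45 over the 6 genes reported. All 6 were below 0, 5 of them without overlap, beside 18.1% of all genes tested, and 3 had an unadjusted p under 0.05, beside 3.03%. The list was put together with earlier results of these data known and is not complete here, so the counts are a description. Sqle, which encodes squalene epoxidase, was at 17.9 and 24.2 FPKM in WT and at 12.3 and 11.1 FPKM in KO, with a log2 fold change of -0.80 (SE 0.18, adjusted p = 0.705, limma). Idi1, an isomerase gene of the isoprenoid steps, was at 6.18 and 7.38 against 3.82 and 4.27 FPKM (log2 fold change -0.68, SE 0.14, adjusted p = 0.683). Fdft1, the squalene synthase gene, was at 7.89 and 9.41 against 6.17 and 5.22 FPKM (log2 fold change -0.56, SE 0.15, adjusted p = 0.760). None of the 6 passed the adjusted threshold. All 6 stayed below 0 under each scaling and with any 1 pool left out. For the 5 without overlap, leaving out a pool could not have turned the sign.

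**Figure D5:**
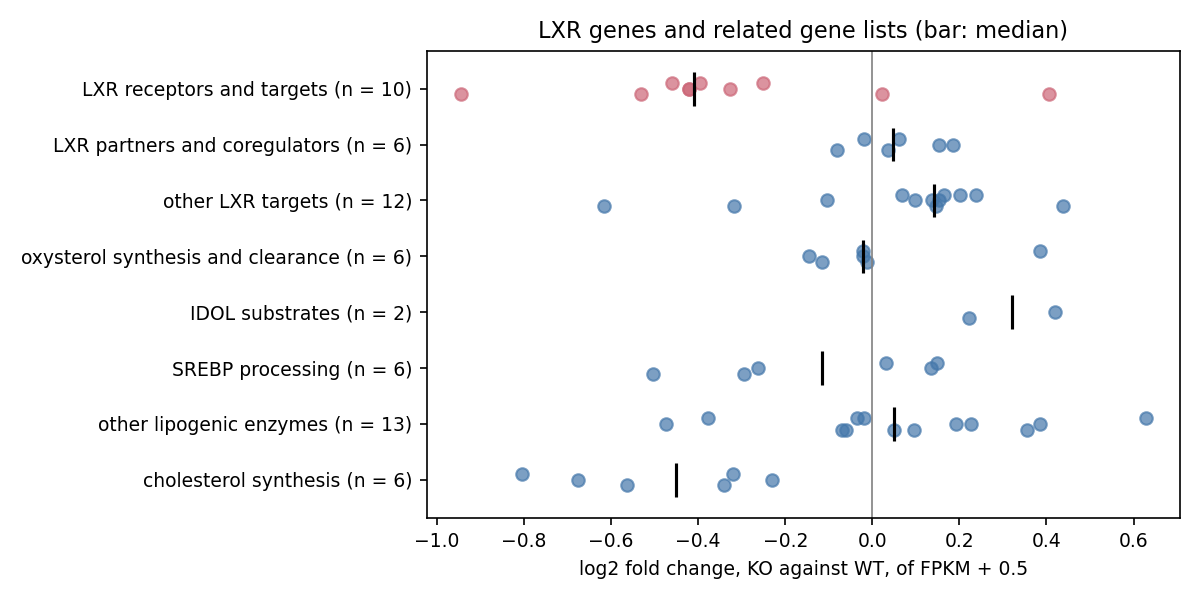
Log2 fold change of KO against WT on the log2(FPKM + 0.5) scale, with a point for each tested gene of the 10 LXR receptors and targets (red) and of 7 related lists (blue), and a black bar at the median of each; vertical offsets within a row carry no value. The medians of the LXR genes (-0.41) and of cholesterol synthesis (-0.45) lie to the left of 0, and that of other LXR targets at 0.14, which was 0.0056 without WT pool 2.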

How the data were processed

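The 10 genes and the related lists were chosen with earlier results of these data known. The genes were found by symbol. The deposited table gives FPKM for each gene in each pool, computed by the authors' sequencing company, beside gene positions and lengths. The submitters' processing notes name HISAT2 2.0.5, mm10 and GRCm38.p6. The counting tool and annotation version are not given in the sources used here, and the library protocol as described does not mark strand.

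FPKM times gene length gave whole reads for 100% of values within 0.01 of a read, and these reads were used for depth and for voom weights. Levels were compared as log2(FPKM + 0.5), a scale that understates changes of low genes, with limma 3.58.1 in R 4.3.3 (lmFit, eBayes with trend), two-sided, for genes with a mean of at least 0.5 FPKM, with Benjamini-Hochberg adjustment and a threshold of 0.05. The main test used the deposited FPKM and the recovered reads entered the voom alternative alone, without a count model. The fit was tested on simulated data. The pools of a group are described as biological replicates. The chi-square per gene between pools was 39.6 in WT and 28.0 in KO, so none was a copy. From each related list, genes with an unadjusted p under 0.05 were named and, where fewer than 3, the 3 of highest mean. Some genes of these lists are not reported here, and the lists' counts and medians leave them out. Other settings tried were a pseudocount of 0.1 or of 1, no filter, a minimum of 1 FPKM, quantile normalization, TPM, no trend, a replicate block, voom weights, protein-coding genes only, and each pool left out. For Itgam, which has 2 rows, that of higher level was kept. Other steps used Python 3.11.15 with numpy 2.4.6, pandas 2.3.3 and matplotlib 3.10.9.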

Additional observations from a re-analysis of the deposited data

How the results depend on the processing

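No gene of the table had an adjusted p under 0.05 under any alternative (limma; 687 to 1720 at an unadjusted p under 0.05). Of the 10 genes, 3 had an unadjusted p under 0.05, and 1, Nr1h3, without a filter, without the trend and with the replicate block. There were 4 with quantile normalization, where Scd2 was added, and 4 with protein-coding genes only, where Abcg1 was added, and with TPM the 3 were Scd2, Scd1 and Nr1h3. Leaving out 1 pool gave 2 to 3, in sets of genes that differed: of the 3, Nr1h3 was among them without WT pool 2 and without KO pool 2, Scd1 without KO pool 2 and Srebf1 without WT pool 1, with the lone pool assumed to vary like the others. The main fit did not pair the pools by replicate number. Across genes, the deviations of same-numbered pools had a correlation of -0.0017, which cannot tell whether those pools were handled together. The 7 lower genes stayed below 0 under every alternative. With a pool left out this was fixed by their lack of overlap, and only a rescaling of the pools could have changed it. Nr1h2 was at -0.034 with quantile normalization and at -0.079 with TPM, where the median of all genes tested was -0.089. With a pool left out Nr1h2 ranged from -0.013 to 0.057, with -0.010 without WT pool 1. The cause of these turns of sign was not tested. The median of the 10 was -0.52 with TPM, beside a median of -0.089 over all genes tested in that setting. With a pool left out the median of the 10 ranged from -0.45 (without WT pool 1) to -0.25 (without WT pool 2). The genes without overlap numbered 8, beside 37.8% of all genes tested. There were 7 under quantile normalization, beside 36.8%, and 6 with TPM, beside 36.1%. With a pool left out there were 8 to 10, where 66.3% to 73.7% of all genes did not overlap. Apela kept its direction, from -3.64 to -2.10. Abcg1 had the fewest reads of the 10, and there were 2 pools a group.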
